A study of Mus musculus with 40 samples.

Results

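The genes described here are 10 transcriptional targets of the tumor suppressor p53, namely *Cdkn1a*, *Mdm2*, *Bax*, *Bbc3*, *Pmaip1*, *Ccng1*, *Trp53inp1*, *Phlda3*, *Zmat3* and *Gdf15*. They were named as textbook targets of p53, with earlier results of these data known, and all 10 were found among the 55414 Ensembl genes of the count table and were among the 25210 genes tested. RNA was sequenced from cardiac fibroblasts isolated from male adult C57BL/6J mice homozygous for a conditional TAK1 allele (TAK1 fl/fl), in which LoxP sites flank exon 2 of *Map3k7*. TAK1 (TGFβ-activated kinase 1, encoded by *Map3k7*) is a kinase that relays signals from the receptors for IL-1β, TNFα and TGFβ. Cells were transduced with an adenovirus that expresses Cre recombinase (ad-CMV-iCre, hereafter iCre) or the control gene LacZ (ad-CMV-LacZ), were serum-starved, and then received no ligand (CTRL), bFGF at 20 ng/ml, TGFβ at 10 ng/ml, IL-1β at 15 ng/ml or TNFα at 10 ng/ml for 24 h. All cultures therefore carried the floxed allele and received a virus, and the CMV promoter drives its transgene in any transduced cell. The 10 groups of virus by ligand each had 4 biological replicates, which gave 40 libraries.

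p53 is a transcription factor that is held at a low level by the ubiquitin ligase MDM2 and is stabilized after DNA damage and other stresses. It binds a response element in or near its target genes, among them *Mdm2* itself, which closes a negative feedback loop. Other targets arrest the cell cycle or favor apoptosis, and many of them also respond to factors other than p53, such as SMAD, FOXO and ATF4 proteins.

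The p53 consensus response element is a pair of 10-base elements, and it reads alike on both strands. It was searched for without a spacer, with at most 2 mismatches and with the C and the G in the core of each element required, in the RefSeq promoter windows of GRCm38.p6, each of which runs from 250 bases before to 50 bases after a transcription start. Windows were at hand for 7 of the 10 genes, and a match was found in 2 of these, *Cdkn1a* and *Ccng1*, against 0.392% of all 27025 genes with a window. *Trp53inp1*, *Pmaip1* and *Zmat3* had no entry. The 250 bases before the start are shown for both genes because they are the members with a match, in capitals, each with 1 mismatch.
*Cdkn1a*, chr17:29090729-29090978, plus strand: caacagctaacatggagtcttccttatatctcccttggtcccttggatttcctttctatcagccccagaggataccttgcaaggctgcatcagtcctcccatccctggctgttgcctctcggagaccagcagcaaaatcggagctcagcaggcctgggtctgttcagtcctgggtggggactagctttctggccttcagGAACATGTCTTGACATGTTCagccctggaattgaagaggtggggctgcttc
*Ccng1*, chr11:40755287-40755536, minus strand: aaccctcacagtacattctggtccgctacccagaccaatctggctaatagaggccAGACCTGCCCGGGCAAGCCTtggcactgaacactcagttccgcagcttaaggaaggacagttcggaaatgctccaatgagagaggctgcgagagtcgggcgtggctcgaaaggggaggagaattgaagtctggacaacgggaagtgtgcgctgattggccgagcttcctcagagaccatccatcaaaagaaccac
The match began 51 bases before the RefSeq start in *Cdkn1a* and 195 bases before it in *Ccng1*. *Cdkn1a* has another RefSeq start, whose window (chr17:29093519-29093818) held no match. A match describes these letters only.

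The libraries held 25360947 to 66160732 counted reads (median 36183962), and the 10 genes received between 128 counts (*Pmaip1*) and 47923 counts (*Ccng1*) in a library. *Map3k7*, whose counts include reads of the recombined allele, was lower in iCre than in LacZ cultures treated with TGFβ (log2 fold change −0.67, SE 0.08), IL-1β (−0.82, SE 0.09) and TNFα (−0.71, SE 0.10), and in CTRL stood at 127 ± 4.27 against 153 ± 6.51 CPM (normalized counts scaled to library size, SD, n = 4; log2 fold change −0.28, adjusted p = 0.137, and 0.00393 with the replicate number as a block). With bFGF it was at 150 ± 14.7 against 199 ± 22.0 CPM (−0.40, adjusted p = 0.351, and 0.000409 with the block). The 10 fibroblast markers summed to between 15351 and 69714 CPM in a library and 11 markers of other cells to between 110 and 1398 CPM, with *Rgs5*, a pericyte marker, at 60.4 to 1366 CPM, the macrophage gene *Lyz2* at 8.73 to 130 CPM and *Tnnt2*, a cardiac troponin gene, at 0.271 to 110 CPM, while the endothelial *Pecam1* was at 1.32 CPM or less, the leukocyte *Ptprc* at 2.08 CPM or less and the cardiomyocyte *Myh6* at 0.0356 CPM or less. The 12 libraries of iCre fibroblasts that received TGFβ, IL-1β or TNFα stood apart in base composition: log2 CPM rose by 0.22 to 0.33 per 10% of transcript GC content relative to the average library, against −0.24 to −0.01 in the other 28 libraries. The members range from 38.8% GC (*Trp53inp1*) to 65.2% GC (*Bbc3*), so values after correction for GC content are given below beside most differences between the viruses. The trend coincides with the groups compared, so it cannot be told apart from a difference of those groups. Correction may therefore remove part of a true difference, and the origin of the trend was not tested.

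Per length of exon, *Ccng1* (208 RPKM, reads per kilobase of exon scaled to library size), *Phlda3* (149 RPKM) and *Cdkn1a* (110 RPKM) were the most abundant of the 10 in LacZ fibroblasts without ligand, followed by *Bax* (72.8 RPKM), *Trp53inp1* (44.0 RPKM) and *Mdm2* (26.3 RPKM). *Bbc3* (17.0 RPKM) and *Zmat3* (15.2 RPKM) had neighboring levels, and *Pmaip1* (8.45 RPKM) and *Gdf15* (7.61 RPKM) were the lowest. Over the 10 groups, the mean of *Cdkn1a* moved between 371 and 520 CPM, whereas *Trp53inp1* ranged from 46.0 to 285 CPM and *Pmaip1* from 10.5 to 57.3 CPM. Replicates spread widely for *Gdf15*, from 14.4 to 52.7 CPM in iCre fibroblasts with TGFβ.

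**Figure D1:**
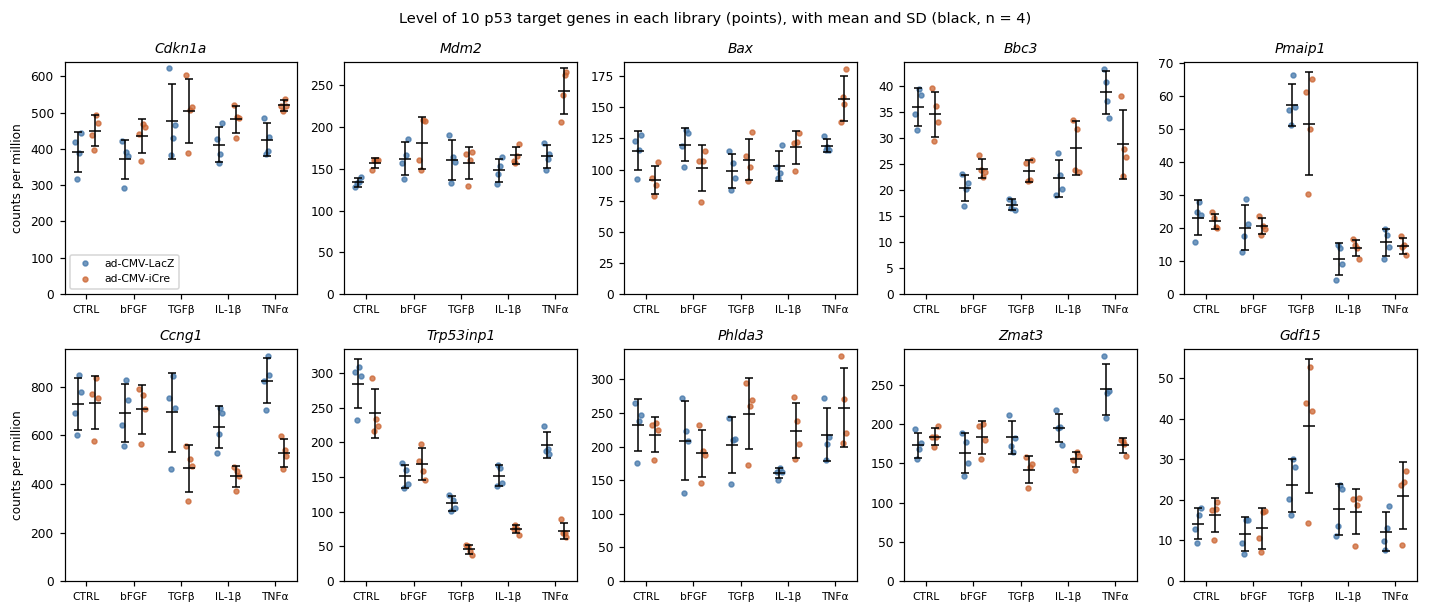
Level of each of the 10 genes (vertical axis, CPM from 0) in the 5 treatments (horizontal axis) for LacZ (blue) and iCre (orange) fibroblasts; points are the 4 libraries of a group, and black bars give the mean and SD. *Trp53inp1* is lower in iCre than in LacZ libraries with TGFβ, IL-1β and TNFα, *Pmaip1* is highest with TGFβ in both, and *Mdm2* and *Bax* are highest in iCre fibroblasts with TNFα.

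Members moved in both directions between iCre and LacZ fibroblasts. No culture received iCre without the floxed allele, so an effect of Cre itself cannot be told apart from loss of TAK1. Differences were tested with edgeR (quasi-likelihood) across the 25210 genes, with an adjusted p of at most 0.05 as the threshold. With TNFα, 3 members (*Cdkn1a*, *Mdm2* and *Bax*) rose above and 3 (*Ccng1*, *Trp53inp1* and *Zmat3*) fell below their LacZ level, against 14.8% of all genes tested higher and 12.6% lower. With IL-1β, 1 was higher (*Phlda3*) and 3 were lower (*Ccng1*, *Trp53inp1* and *Zmat3*), against 7.14% and 8.98%. With TGFβ, 1 was higher (*Bbc3*) and 1 lower (*Trp53inp1*), against 2.51% and 5.87%. Many of the genes tested have few counts, and among the 9469 genes that average 10 CPM or more, as all 10 members do, 50.9% passed in either direction in the TNFα, 31.8% in the IL-1β and 19.1% in the TGFβ comparison, so that 6, 4 and 2 of 10 lie near the background of such genes. The median log2 fold change of the 10 genes was 0.09 in the TNFα, 0.16 in the IL-1β and −0.01 in the TGFβ comparison, against 0.00, 0.04 and 0.00 for all genes tested.

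Without ligand, 0 of the 10 genes passed by edgeR, against 0.0278% of all genes higher and 0.0476% lower. There 2 of the 10 had an unadjusted p under 0.05, against 14% of all genes, and 1, *Mdm2*, passed by DESeq2, against 5.34%. With bFGF, 0 passed by edgeR, as did 0% of all genes in either direction. By DESeq2 0 of the 10 passed, against 1.91% of all genes, and 0 had an unadjusted p under 0.05 by edgeR, against 10.3%. The replicate numbers pair the libraries, and with the replicate number as a block 3 genes passed in CTRL (14.5% of all genes tested in either direction), 2 with bFGF (13.9%), 6 with TGFβ (20.8%), 8 with TNFα (32.2%) and 5 with IL-1β (29.5%). When the GC trend was also removed, the counts became 2 in CTRL (15.2% of all genes), 1 with bFGF (14%), 2 with TGFβ (9.19%), 5 with TNFα (28.2%) and 4 with IL-1β (22.8%). Shares among genes averaging 10 CPM or more were not computed for any fit with the block. The shares of all genes set beside block counts, here and below, include the many genes with few counts.

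In LacZ fibroblasts, *Trp53inp1* fell with every ligand, and the other members differed from ligand to ligand. With bFGF, 2 of the 10 genes passed, both lower (*Bbc3* and *Trp53inp1*), against 7% of all genes higher and 4.64% lower, and 4 passed with the replicate block, against 27.3%. With TGFβ, *Pmaip1* and *Gdf15* rose and *Bbc3* and *Trp53inp1* fell, against 17.5% of all genes higher and 19.3% lower. With IL-1β, 4 passed, all lower (*Bbc3*, *Pmaip1*, *Trp53inp1* and *Phlda3*), against 11.1% higher and 9.55% lower. With TNFα, *Mdm2* and *Zmat3* rose and *Trp53inp1* fell, against 10.9% and 10.4%, and 6 passed with the block, against 35.5%. Of the genes averaging 10 CPM or more, 20.5% passed with bFGF, 60.5% with TGFβ, 36.6% with TNFα and 36.1% with IL-1β. The 4 comparisons share the LacZ CTRL libraries.

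In iCre fibroblasts, 1 gene passed with bFGF (*Bbc3*, lower), against 1.79% of all genes higher and 0.635% lower, and 2 passed with the replicate block, against 16.7%. With TGFβ, *Pmaip1* and *Gdf15* rose and *Bbc3*, *Ccng1*, *Trp53inp1* and *Zmat3* fell, against 18.6% higher and 18.8% lower. With IL-1β, 3 passed, all lower (*Pmaip1*, *Ccng1* and *Trp53inp1*), against 9.38% higher and 6.88% lower, and 6 passed with the block, against 33.8%. With TNFα, *Mdm2* and *Bax* rose and *Pmaip1*, *Ccng1* and *Trp53inp1* fell, against 14.7% and 12.3%. An interaction term, over 16 libraries, tested whether a ligand's change depended on the virus. It passed for 4 genes with TNFα (*Bax*, *Ccng1*, *Trp53inp1* and *Zmat3*), against 16.1% of all genes. It passed for 1 gene with TGFβ (*Trp53inp1*), against 4.51%, and for the same gene with IL-1β, against 7.71%. With bFGF it passed for 0 of the 10 by edgeR or DESeq2, as for 0% of all genes by either, and 1 of the 10 had an unadjusted p under 0.05, against 3.03% of all genes. With the block, 6 genes passed for TGFβ, against 8.04%, and 5 for IL-1β, against 16.9%. Among the genes averaging 10 CPM or more, the shares without the block were higher. For the ligands in iCre fibroblasts they were 4% (bFGF), 65% (TGFβ), 33.5% (IL-1β) and 48.7% (TNFα), and for the interactions 10.4% (TGFβ), 16.9% (IL-1β) and 32.7% (TNFα).

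**Figure D2:**
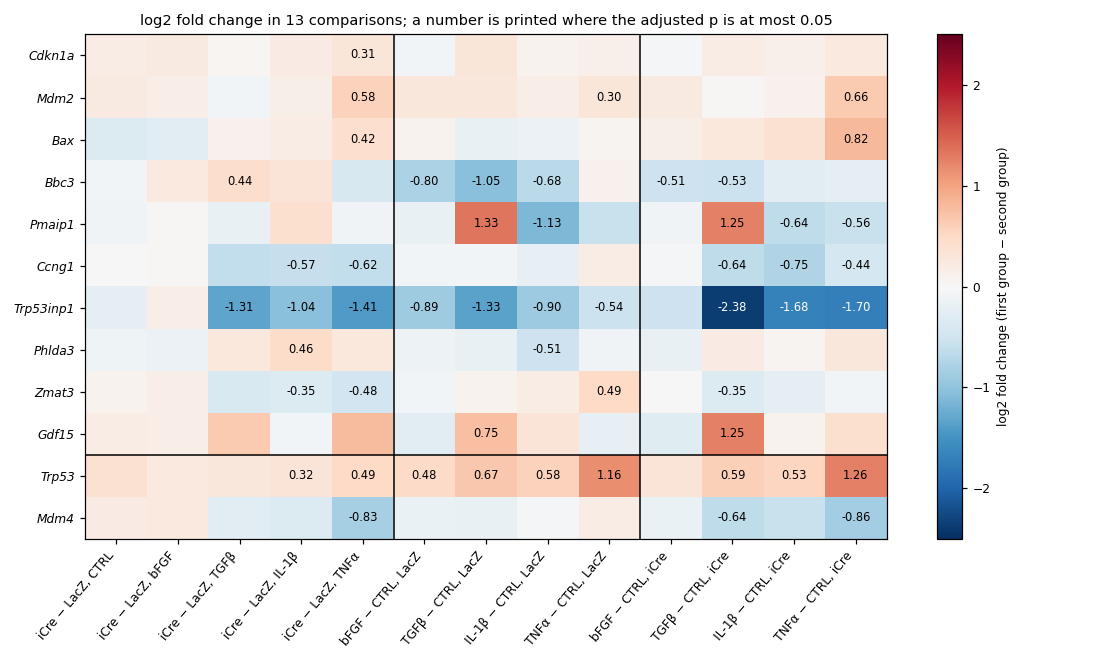
log2 fold change (color, blue lower and red higher in the first group named) of the 10 genes, *Trp53* and *Mdm4* (vertical axis) in 13 comparisons (horizontal axis), with the value printed where the adjusted p is at most 0.05. *Trp53inp1* is blue in each of the 8 ligand comparisons (without a passing call for bFGF in iCre fibroblasts in this fit, which has no block), while *Pmaip1* is red with TGFβ and blue with IL-1β.

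*Trp53* and its feedback inhibitor *Mdm2* were both most abundant in iCre fibroblasts with TNFα. *Trp53* mRNA rose with each ligand in LacZ fibroblasts, from 66.1 ± 8.25 CPM in CTRL to 91.2 ± 8.86 with bFGF, 104 ± 7.01 with TGFβ, 98.2 ± 8.63 with IL-1β and 147 ± 3.90 CPM with TNFα (SD, n = 4), the last a log2 fold change of 1.16 (SE 0.09, adjusted p = 2.71e-05). In iCre fibroblasts with TNFα it reached 203 ± 25.8 CPM, above LacZ by 0.49 on the log2 scale (SE 0.10, adjusted p = 0.00537), and by 0.31 with the block and GC correction (adjusted p = 0.0433). This call was lost with GC correction alone (0.32, adjusted p = 0.0565) and without replicate 3 (0.48, adjusted p = 0.0631), and the bFGF call in LacZ fibroblasts without replicate 1, 3 or 4 (adjusted p = 0.0580, 0.145 and 0.151). With IL-1β *Trp53* was at 123 CPM in iCre (0.32 above LacZ, adjusted p = 0.04), a call that passed with the block (adjusted p = 0.00334). It was lost with GC correction (0.17, adjusted p = 0.348), with the block and GC correction (0.16, adjusted p = 0.152), with RLE normalization (0.30, adjusted p = 0.0589) and without any of the replicates in turn (0.29 to 0.38, adjusted p of 0.0909 to 0.15). With the block it was also higher after Cre without ligand (86.9 against 66.1 CPM, 0.38, adjusted p = 0.000407), with bFGF (0.24, adjusted p = 0.0262) and with TGFβ (0.27, adjusted p = 0.0138). With GC correction as well, the first and the second passed and the TGFβ difference was 0.11 (adjusted p = 0.573). *Mdm4*, which encodes a relative of MDM2 that inhibits p53, was lower after Cre in the presence of TNFα, at 59.1 ± 8.17 against 107 ± 20.3 CPM (log2 fold change −0.83, SE 0.15, adjusted p = 0.00244), and at −0.53 with the block and GC correction. By edgeR without the block, its difference between the viruses did not pass in CTRL (0.21, adjusted p = 0.538) or with bFGF (0.25, adjusted p = 0.683). Nor did it pass with TGFβ (−0.28, adjusted p = 0.430) or IL-1β (−0.34, adjusted p = 0.266).

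*Mdm2* (ENSMUSG00000020184, chr10:117688875-117710758 of GRCm38) was at 128, 133, 134 and 140 CPM in the 4 LacZ CTRL libraries. With TNFα it was at 181, 148, 162 and 168 CPM in the LacZ libraries, and at 206, 238, 262 and 266 CPM in iCre libraries, so that none of the 3 groups overlapped. The rise with TNFα was 0.30 on the log2 scale in LacZ (SE 0.08, adjusted p = 0.0214) and 0.66 in iCre fibroblasts (SE 0.10, adjusted p = 0.00107), where CTRL stood at 157 ± 6.06 CPM (SD, n = 4). The call in LacZ fibroblasts was lost without replicate 1 (log2 fold change 0.23, adjusted p = 0.0992), without replicate 3 (0.32, adjusted p = 0.111) or without replicate 4 (0.32, adjusted p = 0.102). Between the viruses with TNFα, *Mdm2* was higher in iCre by 0.58 (SE 0.11, adjusted p = 0.00307) and by 0.68 with the block and GC correction, and this call held in every alternative tried, as did the rise in iCre fibroblasts. Without ligand, it was higher in iCre by 0.22 on the log2 scale, which passed with the block (adjusted p = 0.0182) and by DESeq2 (0.23, adjusted p = 0.00851) but not otherwise by edgeR (adjusted p = 0.202). With IL-1β the difference passed with the block and GC correction (0.26, adjusted p = 0.0116). In LacZ fibroblasts, *Mdm2* was also higher with bFGF (162 CPM) and TGFβ (161 CPM) than without ligand under the block (0.29, adjusted p = 0.00834, and 0.28, adjusted p = 0.0437; without it, 0.0975 and 0.0747). With GC correction as well these passed at 0.21 and 0.30. The interaction with TNFα missed the threshold (0.35, SE 0.12, adjusted p = 0.0669), and passed with the block (adjusted p = 0.0318) or with GC correction (0.42, adjusted p = 0.0445).

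Both cell cycle genes passed between the viruses with TNFα, in opposite directions, and neither did so after GC correction. *Cdkn1a* (ENSMUSG00000023067, chr17:29090976-29100727), which encodes the cyclin-dependent kinase inhibitor p21, was at 418, 318, 388 and 445 CPM in the LacZ libraries, against 439, 396, 493 and 471 CPM in iCre libraries without ligand, groups that overlap. With TNFα it was at 486, 386, 395 and 434 CPM in the LacZ libraries, and at 519, 503, 538 and 519 CPM in iCre libraries, which did not overlap. The log2 fold change between these was 0.31 (SE 0.10, adjusted p = 0.0496), at the edge of the threshold, and 0.12 with the block and GC correction (adjusted p = 0.44). The call was lost in 9 of the 12 alternatives, among them leaving out replicate 2 (0.26, adjusted p = 0.144), replicate 3 (0.26, adjusted p = 0.297) or replicate 4 (0.32, adjusted p = 0.16). By edgeR without the block, *Cdkn1a* passed in none of the 8 ligand comparisons. With the block it was higher with TGFβ in LacZ fibroblasts (0.28, SE 0.10, adjusted p = 0.0434) and with TNFα in iCre fibroblasts (0.25, SE 0.07, adjusted p = 0.0170, but 0.07, adjusted p = 0.524, with GC correction as well). It was then also higher in iCre than in LacZ with bFGF (0.23, adjusted p = 0.0329) and IL-1β (0.21, adjusted p = 0.0480), at 0.21 (adjusted p = 0.0684) and 0.04 (adjusted p = 0.828) with GC correction as well. Reads from an antisense transcript annotated over 273 exon bases of the gene (AC167363.2) cannot be told apart from its own, since the strand setting of the counting was not given.

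*Ccng1* (ENSMUSG00000020326, chr11:40748552-40755311), which encodes cyclin G1, was the most abundant member. Its means in iCre and LacZ libraries were 735 and 731 CPM without ligand and 707 and 693 CPM with bFGF (log2 fold changes −0.00 and 0.03). It was lower in iCre libraries with IL-1β and TNFα. With TNFα it was at 824, 705, 926 and 849 CPM in the LacZ libraries, and at 598, 461, 539 and 515 CPM in iCre libraries, and every iCre value lay below every LacZ value. This was −0.62 on the log2 scale with TNFα (SE 0.12, adjusted p = 0.00462) and −0.57 with IL-1β (SE 0.13, adjusted p = 0.0125), where the groups were at 431 ± 43.4 and 634 ± 86.2 CPM (SD, n = 4). With the block and GC correction these became −0.13 (adjusted p = 0.385) and −0.07 (adjusted p = 0.687). With TGFβ, *Ccng1* was at 465 ± 96.5 CPM in iCre and 695 ± 164 CPM in LacZ libraries, which passed with the block (−0.60, SE 0.08, adjusted p = 1.10e-05) and was −0.10 with GC correction as well (adjusted p = 0.64). The TNFα call was lost without replicate 3 (−0.58, adjusted p = 0.0574), and the IL-1β call without replicate 3 (−0.54, adjusted p = 0.0918) or replicate 4 (−0.53, adjusted p = 0.0778). In LacZ fibroblasts the means with and without ligand lay between 634 and 826 CPM, and *Ccng1* passed there with TNFα alone, under the block (0.18, SE 0.05, adjusted p = 0.0118), and not with GC correction as well (0.13, adjusted p = 0.0617). In iCre fibroblasts it fell by 0.64 on the log2 scale given TGFβ, 0.75 given IL-1β and 0.44 given TNFα, and with the block and GC correction these were −0.21 (adjusted p = 0.087), −0.34 (adjusted p = 5.83e-05, but 0.169 with GC correction alone) and −0.05 (adjusted p = 0.654). The TGFβ call was lost without replicate 3 (−0.62, adjusted p = 0.0671) or replicate 4 (−0.63, adjusted p = 0.0658), and the TNFα call without replicate 1 (−0.48, adjusted p = 0.0504), replicate 3 (−0.39, adjusted p = 0.191) or replicate 4 (−0.44, adjusted p = 0.143). The interaction of *Ccng1* passed with the block for TGFβ (−0.60, adjusted p = 0.00429) and IL-1β (−0.57, adjusted p = 0.00308), and was −0.16 in both with GC correction as well (adjusted p = 0.652 and 0.471).

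The pro-apoptotic genes of the BCL-2 family did not move together. *Bax* (ENSMUSG00000003873, chr7:45461697-45466898) encodes a pore-forming effector of apoptosis. With TNFα it was at 127, 116, 118 and 116 CPM in the LacZ libraries, and at 138, 158, 153 and 181 CPM in iCre libraries, with no overlap. The difference was 0.42 on the log2 scale (SE 0.09, adjusted p = 0.00787), which was lost without replicate 3 (0.42, adjusted p = 0.0704) or replicate 4 (0.34, adjusted p = 0.0626), and was 0.13 with the block and GC correction (adjusted p = 0.451). Without ligand the order was the opposite, at 123, 92.3, 116 and 128 CPM in the LacZ libraries, against 93.2, 79.1, 87.9 and 106 CPM in iCre libraries, which overlap but differ the same way in each of the 4 numbered pairs. This passed with the block, at −0.33 (SE 0.06, adjusted p = 0.00158), and with the block and GC correction, at −0.36 (adjusted p = 0.000835), as did the difference with bFGF (−0.27, adjusted p = 0.0183, and −0.34, adjusted p = 0.00318). *Bax* rose with TNFα in iCre fibroblasts by 0.82 (SE 0.12, adjusted p = 0.000851), a call held in every alternative. With the block it was higher there with IL-1β too (118 against 91.5 CPM, 0.38, adjusted p = 1.65e-06, and 0.0532 without the block) and with TGFβ (108 CPM, 0.26, adjusted p = 0.0159). With GC correction as well these were 0.21 (adjusted p = 0.0130) and 0.10 (adjusted p = 0.398). Its interactions with IL-1β (0.51, adjusted p = 0.000493) and TGFβ (0.42, adjusted p = 0.0499) passed with the block, and were 0.24 (adjusted p = 0.0962) and 0.13 (adjusted p = 0.729) with GC correction as well. The interaction with TNFα was 0.75 (SE 0.16, adjusted p = 0.00487), and 0.52 with the block and GC correction (adjusted p = 0.0121), but it was lost with GC correction alone (0.52, adjusted p = 0.0696) and without replicate 3 (0.71, adjusted p = 0.0869). A same-strand gene, Gm45808, shares 192 exon bases with *Bax*, and its reads may be split.

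*Bbc3* (ENSMUSG00000002083, chr7:16308393-16318205) encodes PUMA, a BH3-only protein that neutralizes the survival proteins of the family. It was at 34.7, 31.5, 39.5 and 38.3 CPM in LacZ CTRL, at 18.2, 16.5, 17.8 and 16.1 CPM with TGFβ, at 23.1, 16.9, 20.3 and 21.4 CPM with bFGF and at 19, 27.1, 22.9 and 20.3 CPM with IL-1β. Each of the 3 treated groups lay wholly below CTRL. The log2 fold changes were −1.05 with TGFβ (SE 0.11, adjusted p = 4.05e-05), −0.80 with bFGF (SE 0.12, adjusted p = 0.00387) and −0.68 with IL-1β (SE 0.13, adjusted p = 0.00412). The fall with bFGF was lost without replicate 3 (−0.75, adjusted p = 0.0655). With TNFα, *Bbc3* was at 38.8 ± 4.11 CPM in LacZ fibroblasts, against 36.0 ± 3.63 CPM in CTRL (SD, n = 4; 0.11, adjusted p = 0.521), and the difference passed with GC correction, alone (0.30, adjusted p = 0.0409) or with the block (0.31, adjusted p = 0.00388). It fell in iCre fibroblasts with TGFβ (−0.53, SE 0.12, adjusted p = 0.00433) and bFGF (−0.51, SE 0.11, adjusted p = 0.0487), the latter lost without replicate 1 (−0.51, adjusted p = 0.163), replicate 3 (−0.44, adjusted p = 0.441) or replicate 4 (−0.53, adjusted p = 0.246), or with GC correction (−0.41, adjusted p = 0.0917). With the block, *Bbc3* was also lower in iCre fibroblasts with IL-1β (28.1 against 34.6 CPM, −0.29, adjusted p = 0.00167) and TNFα (28.8 CPM, −0.25, adjusted p = 0.0479). Both also passed with the block and GC correction (−0.45 and −0.29). The interaction with TNFα was −0.35 (adjusted p = 0.294) and passed with GC correction, alone (−0.59, adjusted p = 0.0398) or with the block (adjusted p = 0.00464). That with TGFβ passed with the block (0.50, adjusted p = 0.0234) and by DESeq2 (0.51, adjusted p = 0.0115), and was 0.21 with the block and GC correction (adjusted p = 0.492).

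Between the viruses, *Bbc3* was higher in iCre with TGFβ, at 25.3, 21.8, 21.9 and 25.7 CPM against the LacZ values above, with no overlap. The log2 fold change was 0.44 (SE 0.10, adjusted p = 0.0236), lost without replicate 1 (0.43, adjusted p = 0.0864), replicate 3 (0.49, adjusted p = 0.125) or replicate 4 (0.36, adjusted p = 0.246), and it was 0.12 with the block and GC correction (adjusted p = 0.653). With TNFα the sign was the opposite, at 28.8 ± 6.64 CPM in iCre and 38.8 ± 4.11 CPM in LacZ libraries (SD, n = 4). That difference passed with the block (−0.43, SE 0.11, adjusted p = 0.0185) and with the block and GC correction (−0.71, SE 0.10, adjusted p = 0.000827).

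*Pmaip1* (ENSMUSG00000024521, chr18:66458533-66465565) encodes NOXA, another BH3-only protein, and it rose with TGFβ and fell with IL-1β. It was at 15.6, 24.8, 28.0 and 24.0 CPM in LacZ CTRL, at 55.6, 51.1, 66.2 and 56.5 CPM with TGFβ, and at 4.24, 14.7, 13.8 and 9.15 CPM with IL-1β. The TGFβ values were all above and the IL-1β values all below CTRL. The log2 fold change was 1.33 with TGFβ (SE 0.17, adjusted p = 0.000142) and −1.13 with IL-1β (SE 0.33, adjusted p = 0.0354), and the latter was lost without replicate 3 (−1.17, adjusted p = 0.113) or replicate 4 (−1.05, adjusted p = 0.171). The change with TGFβ was 1.25 in iCre fibroblasts (SE 0.21, adjusted p = 0.000803), and both TGFβ calls held in every alternative tried. *Pmaip1* also fell in iCre fibroblasts with IL-1β (−0.64, SE 0.14, adjusted p = 0.0129) and TNFα (−0.56, SE 0.14, adjusted p = 0.0143). The IL-1β call was lost without replicate 3 (−0.67, adjusted p = 0.0687), and the TNFα call without replicate 2 (−0.53, adjusted p = 0.0516) or replicate 3 (−0.61, adjusted p = 0.0656). Both were also lost with GC correction (−0.35, adjusted p = 0.167, and −0.30, adjusted p = 0.148) and with all 40 libraries in 1 fit (adjusted p = 0.0781 and 0.0834). With the block and GC correction they passed at −0.36 and −0.31. In LacZ fibroblasts with TNFα, *Pmaip1* was at 15.6 against 23.1 CPM in CTRL, a log2 fold change of −0.56 (adjusted p = 0.0929), which passed with the block (adjusted p = 3.01e-05) and with the block and GC correction (−0.62, adjusted p = 1.23e-05). The interaction with TNFα was −0.01. Between the viruses it passed with IL-1β alone, under the block and GC correction (0.86, SE 0.22, adjusted p = 0.00607), with 14.0 ± 2.49 CPM in iCre and 10.5 ± 4.84 CPM in LacZ libraries (SD, n = 4).

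*Phlda3* (ENSMUSG00000041801, chr1:135766119-135769136) encodes a pleckstrin-homology protein that represses AKT, a survival kinase. With IL-1β it was at 163, 151, 169 and 162 CPM in the LacZ libraries, and at 274, 181, 238 and 204 CPM in iCre libraries, with no overlap. LacZ CTRL was at 265, 175, 238 and 247 CPM, so the LacZ libraries fell with IL-1β (−0.51, SE 0.13, adjusted p = 0.0193) while iCre stood at 224 ± 40.6 with and 218 ± 25.8 CPM without it (SD, n = 4). The log2 fold change between the viruses with IL-1β was 0.46 (SE 0.13, adjusted p = 0.0358), and 0.15 with the block and GC correction (adjusted p = 0.19). The fall in LacZ fibroblasts was lost without replicate 1 (−0.46, adjusted p = 0.0753), replicate 3 (−0.51, adjusted p = 0.11) or replicate 4 (−0.48, adjusted p = 0.124), and the difference between the viruses without replicate 1 (0.37, adjusted p = 0.112), replicate 3 (0.45, adjusted p = 0.174) or replicate 4 (0.50, adjusted p = 0.0954). The interaction with IL-1β passed with the block (0.53, SE 0.11, adjusted p = 0.00306) and was 0.27 with GC correction as well (adjusted p = 0.0742). That with TGFβ did likewise (0.35, adjusted p = 0.0424, and 0.08, adjusted p = 0.86).

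*Trp53inp1* (ENSMUSG00000028211, chr4:11156431-11174379), which encodes a stress-induced nuclear protein that acts with p53 and also in autophagy, showed the largest differences of the 10 genes between the viruses before GC correction. With TGFβ it was at 124, 101, 117 and 105 CPM in the LacZ libraries, and at 52.2, 50.2, 44.1 and 37.5 CPM in iCre libraries. With IL-1β it was at 137, 167, 163 and 141 CPM in the LacZ libraries, and at 75.0, 81.1, 75.6 and 66.9 CPM in iCre libraries. With TNFα it was at 224, 187, 190 and 183 CPM in the LacZ libraries, and at 89.3, 68.9, 68.9 and 63.2 CPM in iCre libraries. In all 3 treatments the iCre values lay wholly below the LacZ values. The log2 fold changes were −1.31 with TGFβ (SE 0.12, adjusted p = 0.000159), −1.04 with IL-1β (SE 0.09, adjusted p = 0.000113) and −1.41 with TNFα (SE 0.13, adjusted p = 0.000123), and these calls held in every alternative tried. With the block and GC correction they shrank to −0.63 (SE 0.08, adjusted p = 2.46e-05), −0.37 (SE 0.07, adjusted p = 0.000937) and −0.73 (SE 0.08, adjusted p = 0.000180). *Trp53inp1* has the lowest GC content of the 10 genes, at 38.8%. With bFGF the groups stood at 169 ± 22.5 CPM in iCre and 151 ± 16.2 CPM in LacZ libraries, and without ligand at 242 ± 34.9 and 285 ± 35.6 CPM (SD, n = 4). The difference without ligand passed with the block (−0.25, adjusted p = 0.0293) and was −0.16 with GC correction as well (adjusted p = 0.157).

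All 4 ligands lowered *Trp53inp1* in LacZ fibroblasts, from 302, 232, 309 and 296 CPM in CTRL, to a level below each CTRL library. The log2 fold change was −1.33 with TGFβ (SE 0.13, adjusted p = 2.36e-05), −0.90 with IL-1β (SE 0.12, adjusted p = 0.000700), −0.89 with bFGF (SE 0.12, adjusted p = 0.00267) and −0.54 with TNFα (SE 0.12, adjusted p = 0.00903). The bFGF call was lost without replicate 3 (−0.88, adjusted p = 0.0506), and the TNFα call without replicate 3 (−0.48, adjusted p = 0.0891) or replicate 4 (−0.49, adjusted p = 0.0852). In iCre fibroblasts the fall was −2.38 with TGFβ (SE 0.14, adjusted p = 1.16e-06), −1.68 with IL-1β (SE 0.11, adjusted p = 4.48e-05) and −1.70 with TNFα (SE 0.14, adjusted p = 0.000124). With the block and GC correction these falls were −1.72, −1.06 and −1.10, and all 3 passed. With bFGF, *Trp53inp1* was at 169 against 242 CPM in iCre fibroblasts (−0.51, adjusted p = 0.0728). This passed with the block (adjusted p = 0.000738), with GC correction alone (−0.58, adjusted p = 0.0426) or with both (−0.58, adjusted p = 0.000199), and by DESeq2 (−0.53, adjusted p = 0.00459). The interaction was −1.07 with TGFβ (SE 0.19, adjusted p = 0.00220), −0.80 with IL-1β (SE 0.17, adjusted p = 0.00612) and −1.18 with TNFα (SE 0.18, adjusted p = 0.000473). With the block and GC correction it was −0.44 (adjusted p = 0.077), −0.21 (adjusted p = 0.38) and −0.55 (adjusted p = 0.00185), so that it passed with TNFα alone. With GC correction but no block, the TNFα value did not pass (−0.55, adjusted p = 0.0613). Without replicate 3 the interaction was lost with TGFβ (−1.09, adjusted p = 0.0557) and IL-1β (−0.83, adjusted p = 0.0721).

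*Zmat3* (ENSMUSG00000027663, chr3:32334792-32366014), which encodes an RNA-binding zinc finger protein, rose with TNFα in LacZ fibroblasts. It was at 194, 156, 168 and 176 CPM in LacZ CTRL and at 287, 208, 239 and 242 CPM with TNFα, with no overlap. In iCre fibroblasts the libraries were at 184, 171, 184 and 198 CPM without ligand and at 180, 178, 175 and 159 CPM with TNFα, which overlap. The rise in LacZ fibroblasts was 0.49 (SE 0.11, adjusted p = 0.0126), the difference between the viruses with TNFα was −0.48 (SE 0.11, adjusted p = 0.00976), and the interaction, the test of the difference itself, was −0.56 (SE 0.14, adjusted p = 0.0112). With the block and GC correction these were 0.46 (adjusted p = 2.66e-06), −0.44 (adjusted p = 0.00906) and −0.55 (adjusted p = 0.00246), nearly the size before correction. Each of the 3 calls was lost without replicate 3 (adjusted p = 0.0879, 0.0741 and 0.109) and without replicate 4 (adjusted p = 0.0781, 0.0709 and 0.128). *Zmat3* also fell with TGFβ in iCre fibroblasts (−0.35, adjusted p = 0.0199), a call lost without replicate 3 (−0.36, adjusted p = 0.0923) or replicate 4 (−0.33, adjusted p = 0.094). It was lower in iCre than in LacZ fibroblasts given IL-1β (−0.35, SE 0.10, adjusted p = 0.0372), a call lost without any of the replicates in turn (−0.42 to −0.27, adjusted p of 0.0533 to 0.168) and with GC correction (−0.31, adjusted p = 0.0776), though not with the block and GC correction (−0.31, adjusted p = 0.00783). With TGFβ it was at 142 ± 17.0 CPM in iCre and 183 ± 20.8 CPM in LacZ libraries, which passed with the block (−0.39, adjusted p = 0.00100) and with the block and GC correction (−0.33, adjusted p = 0.00892). In iCre fibroblasts with IL-1β it was lower than without ligand, which passed with the block (−0.23, adjusted p = 0.00486) and with GC correction as well (−0.27, adjusted p = 0.00117). The interactions with TGFβ (−0.47, adjusted p = 0.109) and IL-1β (−0.43, adjusted p = 0.0526) also passed with the block (adjusted p = 0.00757 and 0.00732), with the block and GC correction (−0.45, adjusted p = 0.0350, and −0.44, adjusted p = 0.0117) and by DESeq2 (adjusted p = 0.0319 and 0.00769).

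*Gdf15* (ENSMUSG00000038508, chr8:70629393-70632456) encodes a secreted stress cytokine of the TGFβ superfamily, and it was highest with TGFβ. It was at 12.7, 9.49, 16.2 and 18 CPM in LacZ CTRL and at 20.1, 16.2, 30.0 and 28.1 CPM with TGFβ. The groups overlapped, but each numbered library rose, and the log2 fold change was 0.75 (SE 0.24, adjusted p = 0.0316). In iCre fibroblasts the values were 17.6, 10.1, 17.7 and 19.4 CPM without ligand and 43.8, 14.4, 52.7 and 41.8 CPM with TGFβ, a log2 fold change of 1.25 (SE 0.35, adjusted p = 0.0153). Both calls were lost without replicate 1 (0.78, adjusted p = 0.0897 in LacZ and 1.23, adjusted p = 0.0643 in iCre), replicate 3 (0.69, adjusted p = 0.107 and 1.10, adjusted p = 0.0862) or replicate 4 (0.81, adjusted p = 0.0624 and 1.31, adjusted p = 0.0538). Between the viruses, *Gdf15* passed with the block, at 0.57 with TGFβ (SE 0.14, adjusted p = 0.00538) and 0.76 with TNFα (SE 0.16, adjusted p = 0.00695), and with GC correction as well for TNFα (0.48, SE 0.15, adjusted p = 0.0405). With TNFα the libraries were at 9.83, 7.62, 13 and 18.4 CPM in the LacZ libraries, against 23.7, 8.80, 24.3 and 27.2 CPM in iCre, where replicate 2 was lowest in both. The interaction with TNFα passed with the block (0.57, adjusted p = 0.0465) and was 0.34 with GC correction as well (adjusted p = 0.257). In LacZ fibroblasts, *Gdf15* passed with the block at 0.31 for IL-1β (17.7 against 14.1 CPM, adjusted p = 0.0243), and at 0.39 with GC correction as well (adjusted p = 0.00590). It also passed there with the block, lower, for bFGF (−0.30, adjusted p = 0.0475) and, at the edge of the threshold, TNFα (−0.24, adjusted p = 0.05), and these were −0.20 (adjusted p = 0.197) and −0.11 (adjusted p = 0.436) with GC correction as well.

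**Figure D3:**
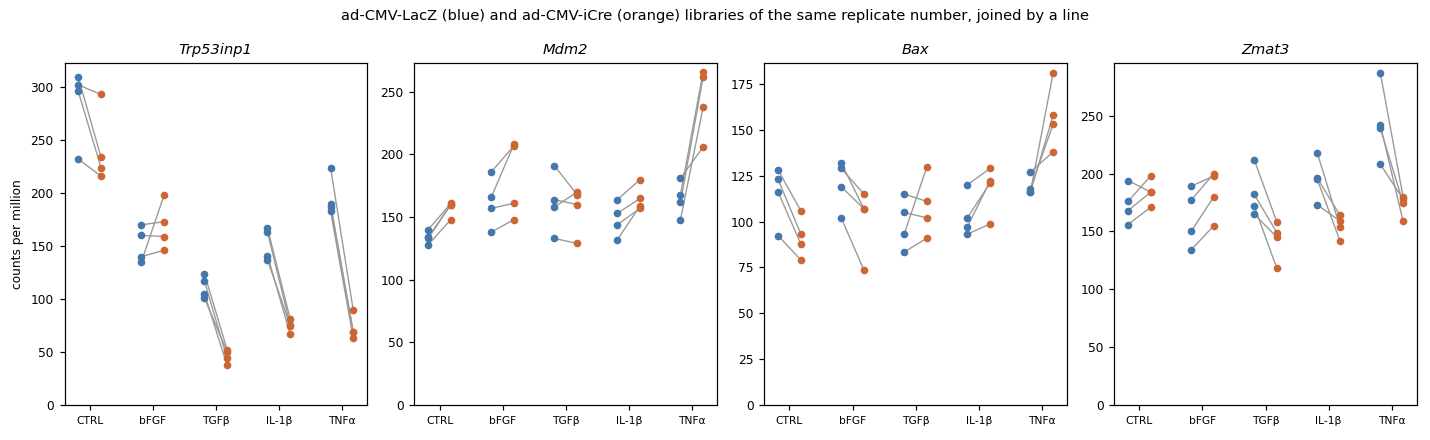
Level (CPM, vertical axis from 0) of *Trp53inp1*, *Mdm2*, *Bax* and *Zmat3* in LacZ (blue) and iCre (orange) libraries of the same replicate number, joined by a line, in 5 treatments. With TNFα the 4 lines of *Mdm2* and *Bax* slope up and those of *Trp53inp1* and *Zmat3* slope down, whereas the lines of *Bax* slope down in CTRL and with bFGF.

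Correction for base composition shifted the members by their GC content. With TGFβ, IL-1β and TNFα, GC correction alone moved members at 47.6% GC or less up and those at 54.4% or more down. *Trp53inp1* and *Ccng1*, the members lowest in GC content (38.8% and 40.8%), moved toward 0, as did *Phlda3* (62.6% GC) with IL-1β, from 0.46 to 0.15, and *Bax* (63.5% GC) with TNFα, from 0.42 to 0.13. *Bbc3*, the member highest in GC content (65.2%), moved away from 0 with TNFα, from −0.41 to −0.71, and toward 0 with TGFβ, from 0.44 to 0.12. *Pmaip1* (42.1% GC) moved away from 0 with IL-1β, from 0.40 to 0.78 with GC correction alone. *Mdm2* (46.2% GC) and *Zmat3* (47.6% GC) lie close to each other in GC content and changed in opposite directions with TNFα, before and after correction. The difference of *Phlda3* with TGFβ, which was 0.27 with the block, was −0.03 with the block and GC correction.

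**Figure D4:**
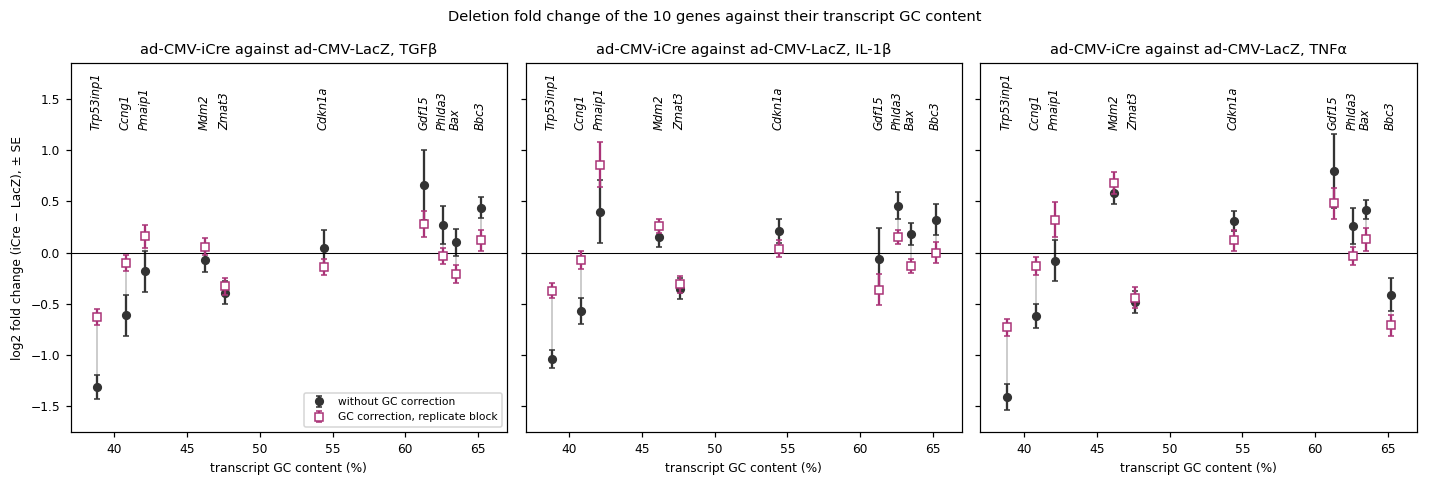
log2 fold change (iCre minus LacZ, ± SE, vertical axis) of the 10 genes against transcript GC content in percent (horizontal axis) with TGFβ, IL-1β and TNFα; black circles are the values without correction and open squares those with GC correction and the replicate block. *Trp53inp1* and *Ccng1*, at the left, move up on correction, while *Mdm2* and *Zmat3* keep their opposite signs with TNFα.

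Other genes of the p53 pathway were counted from lists. Of 18 genes for p53, its relatives and its regulators, 4 rose above and 5 fell below the LacZ level after Cre and TNFα, 1 and 2 with IL-1β, and 1 and 2 with TGFβ. Against these stand, as the shares of all genes tested given above, 14.8% higher and 12.6% lower with TNFα, 7.14% and 8.98% with IL-1β and 2.51% and 5.87% with TGFβ. Among genes averaging 10 CPM or more, the shares in either direction were 50.9%, 31.8% and 19.1%. The largest changes with TNFα were those of *Chek1*, a checkpoint kinase (5.34 ± 2.05 against 2.14 ± 0.715 CPM, log2 fold change 1.33, and 1.78 with the block and GC correction, but lost without replicate 4, at 1.04, adjusted p = 0.0898), and *Atr*, a kinase that senses stalled replication (15.1 ± 2.31 against 28.9 ± 1.68 CPM, −0.92, and −0.43). In LacZ fibroblasts, 5 of the 18 genes rose and 1 fell with TNFα, 2 rose and 3 fell with IL-1β, 3 rose and 6 fell with TGFβ, and 2 passed with bFGF, both higher. In the same order, 21.3%, 20.7%, 36.9% and 11.6% of all genes tested passed in either direction. Of the genes averaging 10 CPM or more, 36.6%, 36.1%, 60.5% and 20.5% passed.

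Of 25 further p53 targets, 3 had a higher and 6 a lower level after Cre with TNFα, 2 and 4 with IL-1β, and 3 and 4 with TGFβ, against the same shares of all genes (50.9%, 31.8% and 19.1% in either direction among genes averaging 10 CPM or more). *Fas*, which encodes a death receptor, and *Dram1*, which acts in autophagy, were induced in LacZ fibroblasts, *Fas* from 36.5 ± 6.05 to 217 ± 17.9 CPM with TNFα (log2 fold change 2.57) and *Dram1* from 23.3 ± 4.16 to 129 ± 9.22 CPM (2.46). Both were lower in iCre fibroblasts with TNFα, at 58.2 ± 21.9 CPM for *Fas* (−1.88, and −1.71 with the block and GC correction) and 39.5 ± 9.66 CPM for *Dram1* (−1.68 and −1.64), and both were lower there with IL-1β as well (−1.44 and −1.51, and −1.22 and −1.43 with the block and GC correction). With TGFβ in LacZ fibroblasts, 5 of the 25 rose and 10 fell, with *Plk2*, a polo-like kinase, at 407 ± 148 CPM (log2 fold change 3.05) and *Sesn1*, a sestrin that restrains mTORC1, at 16.1 ± 0.565 against 63.0 ± 8.83 CPM (−1.95). With IL-1β, 5 rose and 7 fell, with TNFα, 5 rose and 2 fell, and with bFGF, 1 rose and 4 fell. In the same order, 36.9%, 20.7%, 21.3% and 11.6% of all genes tested passed in either direction, and 60.5%, 36.1%, 36.6% and 20.5% of those averaging 10 CPM or more. The median log2 fold change of the 25 genes between the viruses was −0.02 in the TNFα, −0.01 in the IL-1β and 0.00 in the TGFβ comparison.

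Of 12 other BCL-2 family genes, 2 had a higher and 3 a lower level after Cre with TNFα, against 14.8% and 12.6% of all genes. Of the genes averaging 10 CPM or more, 50.9% passed in either direction. *Bid*, a BH3-only protein cleaved by caspase-8, was at 90.1 ± 19.6 CPM in the LacZ group with TNFα, against 21.2 ± 6.85 CPM after Cre (−2.07, and −2.21 with the block and GC correction), and at 11.9 ± 0.856 CPM in LacZ CTRL. *Bcl2l1*, which encodes the survival protein BCL-XL, was the other way, at 176 ± 23.2 CPM after Cre (log2 fold change 0.84, and 0.62 with the block and GC correction). With IL-1β, 2 were higher and 1 lower, against 7.14% and 8.98% of all genes, and 31.8% in either direction among those averaging 10 CPM or more.

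Cell cycle genes were set beside *Cdkn1a* and *Ccng1*. Of 18 cell division genes, 17 were higher after Cre with TNFα (median log2 fold change 1.52, against 0.00 for all genes), where 14.8% of all genes were higher, and all 18 were with the block and GC correction (median 1.70), where 28.2% of all genes passed in either direction. In addition, 17 rose with bFGF in LacZ fibroblasts (median 1.95), against 7% of all genes. In that comparison the share of all genes called in either direction was 11.6%, and 1.32% to 18.2% without 1 replicate. *Aurkb*, a mitotic kinase, was at 28.6 ± 8.25 against 5.86 ± 3.61 CPM between the viruses with TNFα, and *Mcm5*, a helicase subunit, at 42.6 ± 12.4 against 9.27 ± 4.30 CPM (SD, n = 4). Of 14 cyclins, cyclin-dependent kinases and other inhibitors, 7 were higher and 3 lower between the viruses with TNFα, against 14.8% and 12.6% of all genes and 50.9% in either direction among those averaging 10 CPM or more. After GC correction with the block, 7 were higher and 5 lower, against 28.2% of all genes. Among them was *Ccnd1*, which encodes cyclin D1, at 1053 ± 120 against 598 ± 147 CPM, a call lost without replicate 4 (0.80, adjusted p = 0.0555) and with all 40 libraries in 1 fit (0.82, adjusted p = 0.113). With bFGF in LacZ fibroblasts 6 of the 14 rose and 2 fell, against 7% and 4.64% of all genes and 20.5% in either direction among those averaging 10 CPM or more. *Cdkn1a* passed at 0.31 in the first of these comparisons and was at 371 ± 54.7 with bFGF and 392 ± 54.6 CPM without it in the second. The fibroblast markers were lower in the iCre libraries with TNFα (15351 to 23387 CPM in all, against 25795 to 34599 CPM in LacZ). They were also lower with IL-1β (22845 to 35690 against 36618 to 69714 CPM). Collagen genes had the highest medians among them (*Col3a1* 10755, *Col1a2* 5891 and *Col1a1* 4905 CPM). The 11 markers of other cells summed to 315 to 1202 CPM in iCre and 110 to 427 CPM in LacZ libraries with TNFα. Of these, *Rgs5* was at 730 ± 378 against 193 ± 127 CPM. In bulk RNA, fewer cells of a type cannot be told apart from less RNA per cell, and the part of either in these values was not tested.

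*Pmaip1* and *Gdf15*, which rose with TGFβ in both LacZ and iCre fibroblasts without the block, are also known as targets of ATF4 and CHOP, factors of the integrated stress response. Whether these factors acted on *Pmaip1* or *Gdf15* here was not tested. Of 9 ATF4 and CHOP genes, 8 rose with TGFβ in LacZ fibroblasts (median log2 fold change 1.70, against −0.17 for all genes, of which 17.5% rose), led by *Chac1* (a mean of 75.7 against 5.37 CPM) and *Asns* (358 ± 39.2 against 37.2 ± 9.57 CPM). With TNFα 3 rose, against 10.9% of all genes. With IL-1β 1 (*Asns*) rose and 1 (*Ddit3*, which encodes CHOP) fell, against 11.1% higher and 9.55% lower. The shares in either direction among genes averaging 10 CPM or more were 60.5% with TGFβ, 36.6% with TNFα and 36.1% with IL-1β. The *Asns* call was lost without replicate 1 (0.81, adjusted p = 0.0889), replicate 3 (1.02, adjusted p = 0.0901) or replicate 4 (1.00, adjusted p = 0.0697), and with all 40 libraries in 1 fit (0.94, adjusted p = 0.0985). *Ddit3* was at 32.9 ± 7.61 against 58.5 ± 12.5 CPM (SD, n = 4), a call lost without replicate 3 (−0.75, adjusted p = 0.0862) and with all 40 libraries in 1 fit (−0.83, adjusted p = 0.0719).

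Over the 40 libraries the 10 genes were not expressed as a unit. Of their 45 pairs, 29 had a positive and 16 a negative Pearson correlation of log2 CPM, with a median of 0.15 and a range from −0.51 (*Gdf15* with *Trp53inp1*) to 0.73 (*Trp53inp1* with *Ccng1*). Libraries share ligand, virus, replicate number and the GC trend, so these values are descriptions. The genes whose pattern was most like that of *Cdkn1a*, of 10579 genes ranked, were *Irx2* (r = 0.84), *Acot7* (0.82), *Cndp2* (0.81), *Ass1* (0.79) and *Fam129b* (0.79). The nearest other member was *Phlda3*, at rank 53 (r = 0.69), and the farthest was *Trp53inp1*, at rank 9687 (r = −0.47).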

How the data were processed

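RNA was sequenced as single-end polyA libraries from the 40 samples described above, and what the authors deposited are raw counts for each Ensembl gene without normalization, from STAR on mm10 (GRCm38) and HTSeq 0.10.0, after FastQC 0.10.1. Strand setting and annotation release were not given in the sources used here. The labels name a NEBNext Ultra II kit and the methods TruSeq Stranded. Genes with at least 10 counts over the 40 libraries were kept, scaled by TMM and tested by quasi-likelihood (edgeR 4.0.16, R 4.3.3; 8 libraries per comparison, 16 per interaction, Benjamini-Hochberg adjustment, threshold 0.05). Names, positions and GC content came from GENCODE M21, and promoters from RefSeq (GRCm38.p6). CPM use TMM factors over all libraries, and RPKM divides by merged exon length. Reads carry no molecular identifiers, so counting error is the least error of a value. The tests were checked on simulated counts.

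Alternatives were DESeq2 1.42.0, RLE normalization, filterByExpr, leaving out each replicate number, no filter, a replicate block, all 40 libraries in 1 fit, and correction for a spline trend on GC content (24970 genes), alone or with the block. Deviations from group means correlated in every same-numbered pair of the groups compared (r of 0.377 to 0.876 over 11812 genes; mean 0.58, against −0.159 for other numbers), so the numbers were taken to pair the samples; where the pairing comes from is not given in the labels.

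The 10 genes and the other lists were chosen with earlier results of these data known. Named were the 10 genes, *Map3k7*, *Trp53* and *Mdm4*, up to 3 passing genes per list with the largest change between the viruses (TGFβ, IL-1β, TNFα) or with a ligand in LacZ fibroblasts, the 5 protein-coding genes (mean of 5 CPM or more) most like *Cdkn1a*, and, chosen after their values were seen, 6 marker genes of other cells.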

Additional observations from a re-analysis of the deposited data

Results flagged for a closer look

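In 5 of the 100 groups of 4 libraries checked (10 genes in 10 groups), 1 library lay far from the other 3, and chance gives about 1 in 20. These were *Mdm2* in iCre CTRL replicate 1 (148 CPM, the highest being 161 CPM), *Bax* in LacZ TNFα replicate 1 (127 CPM, the lowest 116 CPM), *Trp53inp1* in LacZ CTRL replicate 2 (232 CPM, the highest 309 CPM), *Trp53inp1* in LacZ TNFα replicate 1 (224 CPM, the lowest 183 CPM) and *Gdf15* in iCre IL-1β replicate 2 (8.71 CPM, the highest 20.5 CPM).

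A ligand's log2 fold change differed between iCre and LacZ fibroblasts, by the interaction test of edgeR, for *Trp53inp1* with TGFβ (−1.07), IL-1β (−0.80) and TNFα (−1.18), and with TNFα for *Bax* (0.75), *Ccng1* (−0.63, adjusted p = 0.0353) and *Zmat3* (−0.56). With the replicate block and GC correction, the TNFα values were −0.55 for *Trp53inp1*, 0.52 for *Bax* and −0.55 for *Zmat3*, which passed, and −0.18 for *Ccng1* (adjusted p = 0.191), which did not. The *Ccng1* interaction was also lost without replicate 1 (−0.67, adjusted p = 0.0803), replicate 3 (−0.61, adjusted p = 0.158) or replicate 4 (−0.63, adjusted p = 0.191). With the replicate block the interaction also passed for *Zmat3* with TGFβ (−0.48, adjusted p = 0.00757) and IL-1β (−0.43, adjusted p = 0.00732), and both passed with GC correction as well (−0.45, adjusted p = 0.0350, and −0.44, adjusted p = 0.0117).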

How the results depend on the processing

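Of the 46 passing calls of a member in a comparison or interaction, 16 passed in all 12 alternatives, and none of the 46 changed sign. The number of members passing between the viruses was 0 in CTRL (1 by DESeq2, 3 with the replicate block, 2 with GC correction and block), 0 with bFGF (2 with the block, 1 with GC correction and block), 2 with TGFβ (4 by DESeq2 or with all 40 libraries, 6 with the block, 1 with GC correction), 4 with IL-1β (1 with GC correction) and 6 with TNFα. Without 1 replicate these ranged from 1 to 5 with TGFβ, 1 to 4 with IL-1β and 2 to 7 with TNFα. In LacZ fibroblasts, the counts were 2 with bFGF (4 with the block, 5 with GC correction and block, 0 to 3 without 1 replicate), 4 with IL-1β (2 to 4 without 1 replicate) and 3 with TNFα (6 with the block, alone or with GC correction, 0 to 3 without 1 replicate). In iCre fibroblasts they were 1 with bFGF (2 by DESeq2, with filterByExpr, with the block, with all 40 libraries, or with GC correction and block, 0 to 2 without 1 replicate), 6 with TGFβ (3 to 7 without 1 replicate), 3 with IL-1β (5 by DESeq2, 6 with the block, alone or with GC correction) and 5 with TNFα (3 with GC correction, 3 to 5 without 1 replicate). For the interactions they were 1 with TGFβ (3 by DESeq2, 2 with filterByExpr, 6 with the block, 0 with GC correction, 0 to 2 without 1 replicate), 1 with IL-1β (3 by DESeq2, 2 with RLE normalization or filterByExpr, 5 with the block, 0 with GC correction, 0 to 3 without 1 replicate) and 4 with TNFα (1 to 4 without 1 replicate). The share of all genes called moved between settings too. For the interaction with TGFβ it was 4.51% (8.68% by DESeq2, 10.1% with filterByExpr, 8.04% with the block, 0.709% with GC correction, 1.28% to 5.27% without 1 replicate). For that with IL-1β it was 7.71% (11.7%, 15.1%, 16.9%, 3.79%, and 2.37% to 6.85%, in the same order, and 7.66% with RLE normalization), and for that with TNFα 16.1% (5.39% to 15.4% without 1 replicate). Between the viruses it was 8.37% with TGFβ (15% by DESeq2, 14.2% with all 40 libraries, 20.8% with the block, 1.08% with GC correction, 2.01% to 12.5% without 1 replicate), 16.1% with IL-1β (9.52% with GC correction, 6.18% to 16.6% without 1 replicate) and 27.3% with TNFα (13% to 27.1% without 1 replicate). In CTRL it was 0.0754% (5.34% by DESeq2, 14.5% with the block, 15.2% with GC correction and block) and with bFGF 0% (13.9% and 14% in the last 2 of these). In LacZ fibroblasts it was 11.6% with bFGF (27.3% with the block, 27.7% with GC correction and block, 1.32% to 18.2% without 1 replicate), 20.7% with IL-1β (9.22% to 23.4%) and 21.3% with TNFα (35.5%, 36.2%, and 10.5% to 23.5%). In iCre fibroblasts it was 2.42% with bFGF (7.93% by DESeq2, 5.28% with filterByExpr, 16.7% with the block, 6.04% with all 40 libraries, 16.6% with GC correction and block, 0% to 12.7% without 1 replicate), 37.4% with TGFβ (27.0% to 40.0%), 16.3% with IL-1β (21.9% by DESeq2, 33.8% with the block, 29.8% with GC correction and block) and 27% with TNFα (24.2% with GC correction, 14.0% to 25.4% without 1 replicate). Leaving out a replicate number leaves 6 libraries in a comparison and 12 in an interaction; the cause of the other shifts was not tested. The block ended no call that passed without it.

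Alternatives were recomputed for the differences of a member that passed in at least 1 setting. Among these, signs turned for 2 that had not passed in the test as reported: *Bax* with TNFα in LacZ fibroblasts was −0.03 to 0.13 without 1 replicate (−0.03 without replicate 2), and *Phlda3* between the viruses with TGFβ was −0.04 with GC correction and −0.03 with GC correction and the block. GC correction also turned differences between the viruses that passed in no setting, among them *Bax* with IL-1β (0.18 to −0.13) and TGFβ (0.10 to −0.21), *Cdkn1a* with TGFβ (0.05 to −0.15), *Pmaip1* with TGFβ (−0.18 to 0.21) and *Phlda3* with TNFα (0.26 to −0.03). With all 40 libraries in 1 fit, *Mdm2* with TNFα (adjusted p = 0.0511), *Phlda3* with IL-1β (0.0512) and *Gdf15* with TGFβ (0.116) in LacZ fibroblasts and *Phlda3* between the viruses with IL-1β (0.0837) were lost. *Bbc3*, *Pmaip1* and *Gdf15* had the fewest counts, down to 128 in a library for *Pmaip1*.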
